A study of Mus musculus with 2 samples.

Results

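The DNA repair genes described here are the protein-coding genes whose symbols belong to the Fanconi (Fanc), Rad50 to Rad59, Xrcc, Ercc, Msh, Mlh and Neil families, together with Brca1, Brca2, Palb2, Bard1, Brip1, Blm, Wrn, Exo1, Mre11a, Nbn, Atm, Atr, Chek1, Chek2, Ung, Ogg1, Xpa and Xpc. The rule used symbols only, no measured value, and found 65 of 54532 genes. The study sequenced mRNA of CMT167R, a derivative of the mouse lung carcinoma line CMT167 that the labels call resistant to anti-PD1, and 2 libraries were analysed. The library called PKCi came from cells given 50 nM of a compound named only PKCi for 24 h, and the library called CON from untreated cells of the same line, so both groups share the resistant background. Each group had 1 library, so differences between the libraries could not be set against replicate error and no test was made. Every 95% interval therefore covers counting error only. The reads carried no stated molecular identifiers and may include copies of the same molecule, so the intervals may be too narrow even for that.

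Cells repair DNA by pathways that differ in the lesion they read and in when they act. Fanconi proteins unhook crosslinks between the strands at stalled replication forks, homologous recombination copies the sister chromatid with the help of the BRCA proteins, and mismatch repair corrects errors left by the polymerases, so these pathways work mostly in cells that are replicating DNA. End joining and nucleotide excision repair act through the whole cell cycle, and glycosylases start base excision by cutting out damaged bases.

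Levels are given as CPM, the count of a gene divided by its library total and multiplied by 1000000. The PKCi library held 16071153 gene counts and the CON library 16090186. Where a gene had 0 counts, levels of up to 0.187 CPM with PKCi and 0.186 CPM in CON remain possible (3 counts of the total). Genes that reached 1 CPM in either library are called measured (12273 in all), the log2 ratio is that of PKCi over CON on the log2(CPM + 1) scale, and a fold given for a single gene is the plain ratio of CPM. Counts of genes past 2-fold or 1.5-fold use the log2 ratio, which lies closer to 0 than the plain fold for genes of low level. All 8 epithelial markers had counts, and their levels differed widely. The keratin genes Krt8 (1182 CPM with PKCi and 933 CPM in CON) and Krt18 (765 CPM with PKCi and 643 CPM in CON) were the most abundant, and Krt19 had 71.1 CPM with PKCi and 59.7 CPM in CON. Krt7 was lower, with 29.8 CPM with PKCi and 43.5 CPM in CON. Of the junction and adhesion genes, Epcam had 6.28 CPM with PKCi and 3.48 CPM in CON, Cdh1 had 3.36 CPM with PKCi and 2.92 CPM in CON and Cldn7 had 7.40 CPM with PKCi and 6.53 CPM in CON, all low beside the keratins, and Cldn4 had 3 counts with PKCi and 2 in CON, under 1 CPM. Of 8 lung identity markers 6, Nkx2-1 and Sftpc among them, had 0 counts in both libraries. The only measured lung marker, Foxa2, had 32.2 CPM with PKCi and 41.5 CPM in CON. An extraction protocol in the labels speaks of retinas, and 7 of 10 retina markers, rhodopsin among them, had 0 counts in both libraries (sums of 0.373 CPM with PKCi and 0.249 CPM in CON). Of 13 leukocyte markers 9, including Ptprc, were at 0 in both. Sums of leukocyte markers were 7.16 CPM with PKCi and 10.9 CPM in CON, and without Lyz2 (3.11 CPM with PKCi and 8.27 CPM in CON) they were 4.04 CPM with PKCi and 2.61 CPM in CON. Sums of fibroblast markers were 38.3 CPM with PKCi and 101 CPM in CON, and without Pdgfrb (24.4 CPM with PKCi and 88.4 CPM in CON) they were 13.9 CPM with PKCi and 12.8 CPM in CON. Of the 5 measured fibroblast markers, 2 (Pdgfrb and Col1a1) were at least 1.5-fold lower and 3 (Pdgfra, Col3a1 and Dcn) at least 1.5-fold higher, so neither list moved in 1 direction. Their part in the results was not tested.

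As a group the repair genes were lower in the PKCi library. Of the 65 genes 61 were measured, and their median log2 ratio was −0.43, against −0.01 over all 12273 measured genes. Of the 61, 10 (16.4%) were at least 2-fold lower, against 5.13% of all measured genes, and 0 were at least 2-fold higher, against 6.53%. At least 1.5-fold, 27 (44.3%) were lower, against 16.7% of all measured genes, and 2 (3.28%) were higher, against 16.8%. Log2 ratios were below 0 for 46 of the 61 (75.4%), against 50.8% of all measured genes. The summed level of the 65 genes was 1754 CPM with PKCi and 2454 CPM in CON. The other 4 genes were under 1 CPM in both libraries: Neil2 had 1 count with PKCi and 0 in CON, Msh4 had 0 with PKCi and 3 in CON, Fancd2os had 0 with PKCi and 1 in CON, and Rad51ap2 had 0 in both.

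**Figure D1:**
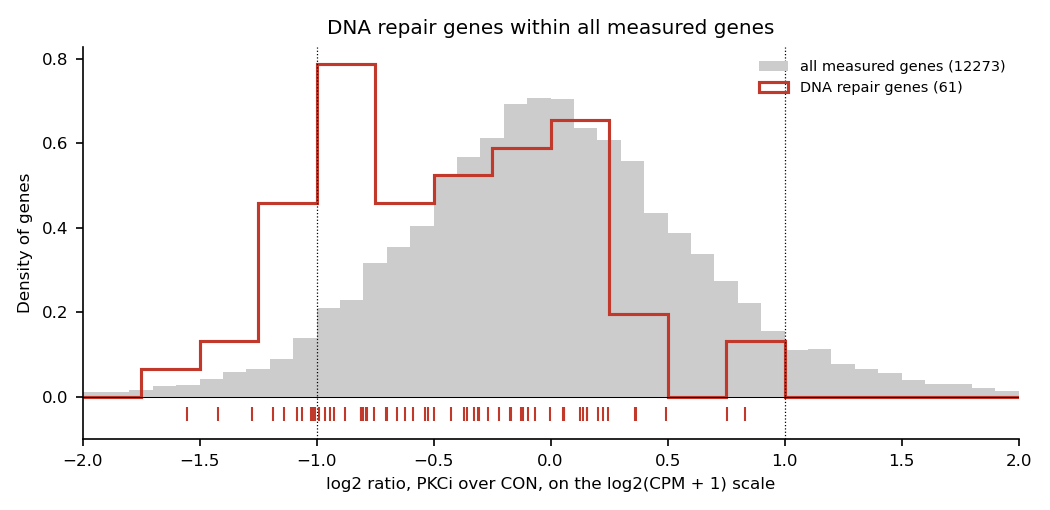
Distribution of log2 ratios of PKCi over CON on the log2(CPM + 1) scale (x axis) as the density of genes (y axis), for all 12273 measured genes in grey and the 61 measured DNA repair genes as a red line, with a red tick per repair gene below. Dotted lines mark 2-fold, and 155 genes lie outside the plotted range. The repair genes lie further left, with a median of −0.43 against −0.01.

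Replication and mitosis genes were lower in the same library. Past 2-fold, 21 of 37 measured replication genes were lower and 0 were higher, and their median log2 ratio was −1.01, with summed levels of 2377 CPM with PKCi and 5599.5 CPM in CON. The helicase gene Mcm5 had 121 CPM with PKCi and 418 CPM in CON (3.46-fold lower, 95% interval 3.29 to 3.64), and Pcna, the sliding clamp of the polymerases, had 172 CPM with PKCi and 315 CPM in CON (1.83-fold lower, 95% interval 1.75 to 1.92). Past 2-fold, 8 of 20 mitosis genes were lower and 0 were higher (median −0.98). Cyclin A2 (Ccna2) had 104 CPM with PKCi and 317 CPM in CON, and Mki67 had 351 CPM with PKCi and 467 CPM in CON. The repair genes' median lay between the medians of these lists and that of all genes. Whether fewer cells in S phase or less RNA per cell lies behind such differences cannot be told apart in bulk RNA, and the part of the replication difference in the repair results was not tested.

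**Figure D2:**
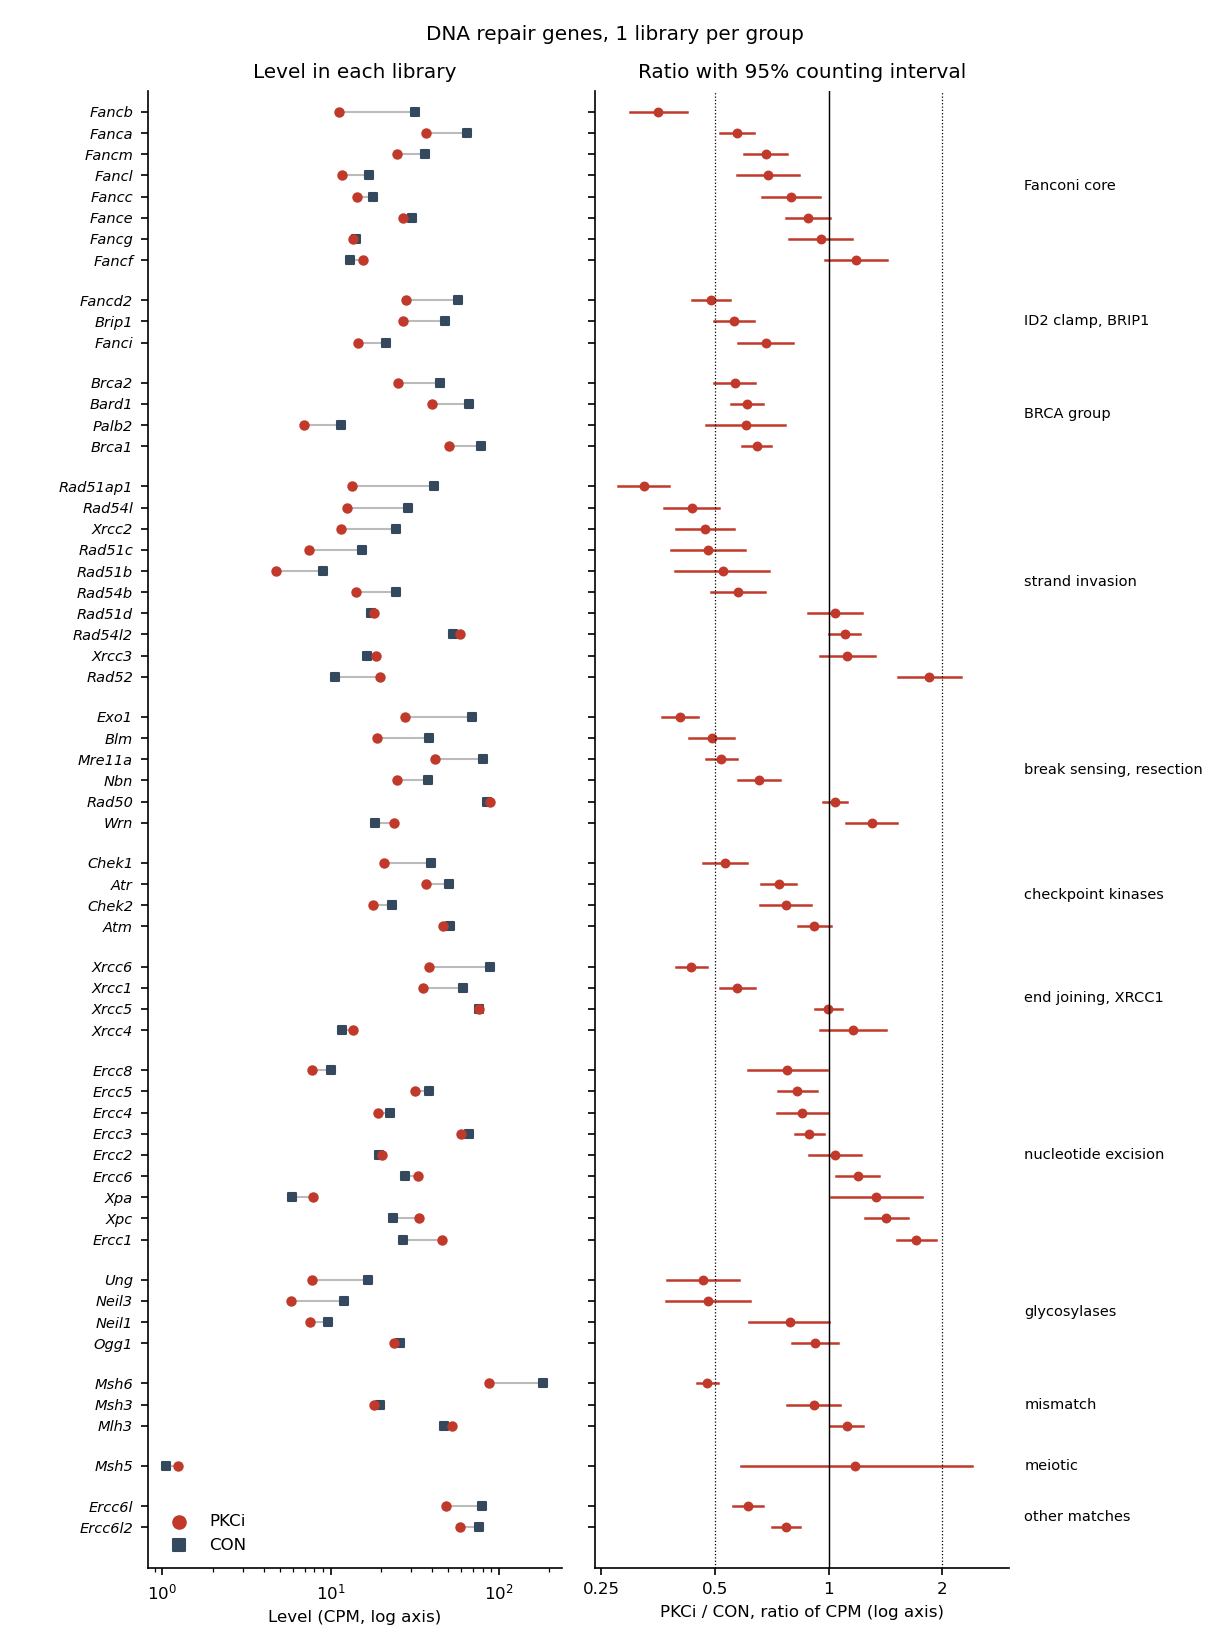
Each row is 1 of 58 of the 61 measured DNA repair genes, grouped by role. The left panel shows its level in the PKCi library (red circles) and the CON library (dark squares) in CPM on a log axis. The right panel shows the ratio of PKCi to CON on a log axis with its 95% counting interval, with dotted lines at 2-fold. Rows of recombination, Fanconi and BRCA genes lie mostly left of 1, and nucleotide excision rows lie on both sides of it.

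Among the genes of the Fanconi core complex, the ubiquitin ligase that marks stalled forks, 7 of 8 had log2 ratios below 0 and 1 was at least 2-fold lower (median −0.40). That gene was Fancb, a subunit of the catalytic module, with 180 counts with PKCi and 509 in CON (11.2 CPM with PKCi and 31.6 CPM in CON, 2.82-fold lower, 95% interval 2.38 to 3.37). Fanca, a scaffold subunit, had 36.9 CPM with PKCi and 64.4 CPM in CON (1.75-fold lower, 95% interval 1.58 to 1.93). Fancm, the translocase that anchors the complex to DNA, had 24.8 CPM with PKCi and 36.4 CPM in CON (1.47-fold lower, 95% interval 1.29 to 1.67). Fancl carries the ligase activity itself and stood near Fancm in its ratio. It had 11.8 CPM with PKCi and 17.03 CPM in CON (1.45-fold lower, 95% interval 1.199 to 1.75). The structural subunits Fancc, Fance and Fancg stood closer to their CON levels. Fancc had 14.3 CPM with PKCi and 17.96 CPM in CON. Fance had 26.8 CPM with PKCi and 30.3 CPM in CON. Fancg had 13.5 CPM with PKCi and 14.2 CPM in CON. Fancf, an adaptor subunit, was the member above 0, with 15.5 CPM with PKCi and 13.1 CPM in CON (ratio 1.18, 95% interval 0.980 to 1.43). The subunits of this complex spanned log2 ratios from −1.42 to 0.22.

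The substrate of that ligase, the clamp of FANCD2 and FANCI, was lower in both of its genes. Fancd2 had 28.0 CPM with PKCi and 57.3 CPM in CON (2.05-fold lower, 95% interval 1.83 to 2.30). Fanci had 14.6 CPM with PKCi and 21.4 CPM in CON (1.47-fold lower, 95% interval 1.24 to 1.74). Brip1, a helicase that binds BRCA1, had 27.0 CPM with PKCi and 48.0 CPM in CON (1.78-fold lower, 95% interval 1.58 to 2.006). Of 21 partner genes of crosslink repair that the rule does not take, all measured, 0 passed 2-fold in either direction, and past 1.5-fold 7 were lower and 0 higher (median −0.39). The lowest was Usp1, which removes ubiquitin from the clamp, with 122 CPM with PKCi and 241 CPM in CON. The nuclease subunit gene Eme1 had 11.8 CPM with PKCi and 23.4 CPM in CON. Genes for DNA-binding partners of FANCM came next. Faap24 had 11.9 CPM with PKCi and 23.4 CPM in CON, and Cenpx had 12.9 CPM with PKCi and 25.2 CPM in CON.

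All 4 genes of the BRCA group were lower by similar factors. Brca1, a ubiquitin ligase that promotes resection of broken ends, had 50.6 CPM with PKCi and 78.5 CPM in CON (1.55-fold lower, 95% interval 1.42 to 1.69). Its partner gene Bard1 had 40.1 CPM with PKCi and 66.1 CPM in CON (1.65-fold lower, 95% interval 1.49 to 1.82). Brca2, a mediator of homologous recombination, had 25.3 CPM with PKCi and 44.9 CPM in CON (1.77-fold lower, 95% interval 1.57 to 2.008). The log2 ratios of the group lay between −0.80 and −0.62, and 0 of 4 passed 2-fold. Palb2, which links the BRCA proteins, had 6.97 CPM with PKCi and 11.6 CPM in CON (1.66-fold lower, 95% interval 1.31 to 2.12).

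The genes of strand invasion, the step in which a broken end pairs with a homologous duplex, held the lowest and the highest repair gene. Past 2-fold, 4 of the 11 measured genes of this group were lower and 0 were higher (median −0.81). Rad51ap1, which helps the invasion of a homologous duplex, had 215 counts with PKCi and 664 in CON (13.4 CPM with PKCi and 41.3 CPM in CON, 3.08-fold lower, 95% interval 2.64 to 3.61), the lowest log2 ratio of all repair genes (−1.56). Only 1.05% of the measured genes had a lower ratio. The gene lies on chromosome 6 from 126923050 to 126939587 on the minus strand (GRCm38). Rad54l, a motor protein of this step, had 12.5 CPM with PKCi and 28.8 CPM in CON (2.30-fold lower, 95% interval 1.95 to 2.73). Its relative Rad54b had 14.1 CPM with PKCi and 24.4 CPM in CON (1.74-fold lower, 95% interval 1.47 to 2.05).

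Xrcc2, Xrcc3, Rad51b, Rad51c and Rad51d, whose products form complexes that assist recombination, divided into 3 that were lower and 2 near their CON levels. Xrcc2 had 11.5 CPM with PKCi and 24.4 CPM in CON (2.12-fold lower, 95% interval 1.78 to 2.54). Rad51c had 7.40 CPM with PKCi and 15.4 CPM in CON (2.08-fold lower, 95% interval 1.67 to 2.61). Rad51b had 4.73 CPM with PKCi and 9.01 CPM in CON (1.91-fold lower, 95% interval 1.43 to 2.55). The intervals of Rad51d and Xrcc3 held a ratio of 1. Rad51d had 18.2 CPM with PKCi and 17.5 CPM in CON (ratio 1.04, 95% interval 0.880 to 1.23), and Xrcc3 had 18.5 CPM with PKCi and 16.5 CPM in CON (ratio 1.12, 95% interval 0.948 to 1.33). Rad52, a strand-annealing protein, had 314 counts with PKCi and 170 in CON (19.5 CPM with PKCi and 10.6 CPM in CON, 1.85-fold higher, 95% interval 1.53 to 2.24), the highest log2 ratio of the repair genes (0.83). Rad54l2, whose product is a chromatin remodeller named for its resemblance to RAD54, had 58.7 CPM with PKCi and 53.3 CPM in CON.

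Of 6 genes that sense and process broken ends, 4 had log2 ratios below 0 and 1, Exo1, was at least 2-fold lower. Exo1, a nuclease that resects ends and also serves mismatch repair, had 27.9 CPM with PKCi and 68.9 CPM in CON (2.47-fold lower, 95% interval 2.21 to 2.76). Blm, a helicase that dissolves joined recombination intermediates, had 18.9 CPM with PKCi and 38.5 CPM in CON (2.04-fold lower, 95% interval 1.78 to 2.35). Like Rad51c and Neil3, it was over 2-fold lower by plain ratio but short of 2-fold on the log2(CPM + 1) scale. The MRN complex, which binds broken ends, was lower in Mre11a and Nbn but not in Rad50. Mre11a had 41.8 CPM with PKCi and 80.2 CPM in CON (1.92-fold lower, 95% interval 1.75 to 2.11). Nbn had 24.9 CPM with PKCi and 38.0 CPM in CON (1.53-fold lower, 95% interval 1.34 to 1.74). Rad50 had 88.8 CPM with PKCi and 85.3 CPM in CON (ratio 1.04, 95% interval 0.966 to 1.12). Wrn, the helicase missing in Werner syndrome in humans, was higher, with 23.8 CPM with PKCi and 18.3 CPM in CON (1.30-fold higher, 95% interval 1.11 to 1.52).

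Past 2-fold, 6 of 28 partner genes of recombination were lower and 0 were higher (median −0.31). Polq, the polymerase of microhomology-mediated joining, had 13.3 CPM with PKCi and 33.8 CPM in CON (2.54-fold lower, 95% interval 2.16 to 2.99). The resection nuclease gene Dna2 had 8.77 CPM with PKCi and 22.1 CPM in CON (2.52-fold lower, 95% interval 2.07 to 3.09). Rpa1, the large subunit of the single-strand binding protein, had 121 CPM with PKCi and 269 CPM in CON (2.23-fold lower, 95% interval 2.12 to 2.36). These and Rmi2 were the lowest of the list. Rmi2, a partner of BLM, had 30 counts with PKCi and 86 in CON (2.86-fold lower, 95% interval 1.87 to 4.50).

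All 4 checkpoint kinase genes had log2 ratios below 0, and 0 passed 2-fold. Chek1, which restrains the cell cycle when forks stall, had 20.9 CPM with PKCi and 39.3 CPM in CON (1.88-fold lower, 95% interval 1.64 to 2.15). Its activator gene Atr had 37.1 CPM with PKCi and 50.3 CPM in CON (1.35-fold lower, 95% interval 1.22 to 1.51). Chek2, a kinase downstream of ATM, had 17.9 CPM with PKCi and 23.2 CPM in CON (1.30-fold lower, 95% interval 1.11 to 1.52). Of the 4, Chek1 was the lowest and Atm the nearest to its CON level. Atm, the kinase at double-strand breaks, had 46.9 CPM with PKCi and 51.1 CPM in CON (ratio 0.916, 95% interval 0.829 to 1.01), a difference not detectable at this depth.

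Of 12 checkpoint partner genes, 4 were lower past 2-fold and 0 higher (median −0.61). The products of Timeless, Tipin and Clspn travel with the fork and help ATR to activate CHK1. Timeless had 25.3 CPM with PKCi and 70.6 CPM in CON (2.79-fold lower, 95% interval 2.49 to 3.14). Clspn had 25.6 CPM with PKCi and 62.1 CPM in CON (2.43-fold lower, 95% interval 2.16 to 2.73). Tipin had 27.9 CPM with PKCi and 65.5 CPM in CON (2.34-fold lower, 95% interval 2.10 to 2.62). The fourth was Wee1, a kinase that inhibits CDK1, with 29.7 CPM with PKCi and 61.2 CPM in CON (2.06-fold lower, 95% interval 1.84 to 2.30). Targets of p53, which stand downstream of the checkpoint kinases, were on both sides, with 10 of 19 measured below 0 and 9 above (median 0.00). Past 2-fold, 4 (21.1%) were higher and 1 (5.26%) was lower, against 6.53% and 5.13% of all measured genes. At 1.5-fold, 7 (36.8%) were higher and 3 (15.8%) lower, against 16.8% and 16.7%. The highest log2 ratios were those of Trp53inp1 (4.43-fold higher, 95% interval 4.01 to 4.90), Btg2 (3.69-fold higher, 95% interval 3.12 to 4.39) and Bbc3 (3.22-fold higher, 95% interval 2.54 to 4.12). The gene lower past 2-fold was Ccng1, with 182 CPM with PKCi and 406 CPM in CON (2.23-fold lower, 95% interval 2.13 to 2.33). Cdkn1a, the cell cycle inhibitor p21, had 82.1 CPM with PKCi and 37.2 CPM in CON (2.20-fold higher, 95% interval 2.0001 to 2.43). Mdm2, which encodes the ligase that degrades p53, had 635 CPM with PKCi and 419 CPM in CON (1.52-fold higher, 95% interval 1.47 to 1.57).

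The genes of the Ku heterodimer, the ring that caps broken ends for joining, differed from each other. Xrcc6, which encodes Ku70, had 616 counts with PKCi and 1425 in CON (38.3 CPM with PKCi and 88.6 CPM in CON, 2.31-fold lower, 95% interval 2.10 to 2.54). Xrcc5, which encodes Ku80, had 1222 counts with PKCi and 1224 in CON (76.0 CPM with PKCi and 76.1 CPM in CON, ratio 1.000, 95% interval 0.923 to 1.08). Xrcc6 shares exon bases with Desi1 on the opposite strand, whose counts are given with the other overlapping genes. Xrcc4, the scaffold of the joining ligase, had 13.5 CPM with PKCi and 11.6 CPM in CON (ratio 1.16, 95% interval 0.951 to 1.42). Xrcc1, a scaffold of single-strand break repair, had 35.2 CPM with PKCi and 61.4 CPM in CON (1.74-fold lower, 95% interval 1.57 to 1.94).

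The 13 partner genes of end joining had a median of −0.14. Past 2-fold, 1 (7.69%) was lower and 0 higher, against 5.13% and 6.53% of all measured genes. The lower gene was H2afx, the histone variant phosphorylated at breaks, with 53.2 CPM with PKCi and 122 CPM in CON (2.29-fold lower, 95% interval 2.11 to 2.48). The polymerase gene Polm had 44.3 CPM with PKCi and 24.5 CPM in CON (1.80-fold higher, 95% interval 1.59 to 2.05). Dclre1c, the Artemis nuclease, had 10.5 CPM with PKCi and 5.78 CPM in CON (1.81-fold higher, 95% interval 1.40 to 2.36). Both process ends before ligation, and both were higher with PKCi, but they were named for their large log2 ratios. Poll, another polymerase gene of the list, was not higher (20.3 CPM with PKCi and 23.1 CPM in CON). Rif1, which shields ends from resection, had 83.6 CPM with PKCi and 131 CPM in CON (1.57-fold lower, 95% interval 1.47 to 1.68).

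The promoter windows of the Ku genes, of Msh6 and of Ercc1 are shown so that the start regions can be read beside the levels: the Ku genes differ within a heterodimer, Msh6 is the most abundant of the lower genes, and Ercc1 was higher. The windows come from RefSeq (GRCm38.p6), run 5′ to 3′ from 250 bases before to 50 after the RefSeq start, and lie on the plus strand at chr15:82016119-82016418 (Xrcc6), chr1:72307171-72307470 (Xrcc5), chr17:87974800-87975099 (Msh6) and chr7:19344821-19345120 (Ercc1). Capitals mark an E2F-type octamer, searched on both strands as TTTGGCGC, TTTCCCGC, TTTGCCGC and TTTCGCGC, letters bound by the E2F factors that drive S phase genes.
Xrcc6: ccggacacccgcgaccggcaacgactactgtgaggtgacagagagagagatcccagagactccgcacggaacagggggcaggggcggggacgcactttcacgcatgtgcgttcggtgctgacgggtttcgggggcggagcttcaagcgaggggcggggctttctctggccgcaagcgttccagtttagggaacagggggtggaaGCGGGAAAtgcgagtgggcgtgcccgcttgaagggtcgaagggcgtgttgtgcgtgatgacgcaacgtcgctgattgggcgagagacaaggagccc
Xrcc5: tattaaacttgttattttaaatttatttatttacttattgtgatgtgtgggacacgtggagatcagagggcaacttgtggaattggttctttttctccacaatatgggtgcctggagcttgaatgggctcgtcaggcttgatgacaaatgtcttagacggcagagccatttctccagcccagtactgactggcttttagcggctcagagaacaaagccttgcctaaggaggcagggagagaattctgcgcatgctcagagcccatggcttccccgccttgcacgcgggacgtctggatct
Msh6: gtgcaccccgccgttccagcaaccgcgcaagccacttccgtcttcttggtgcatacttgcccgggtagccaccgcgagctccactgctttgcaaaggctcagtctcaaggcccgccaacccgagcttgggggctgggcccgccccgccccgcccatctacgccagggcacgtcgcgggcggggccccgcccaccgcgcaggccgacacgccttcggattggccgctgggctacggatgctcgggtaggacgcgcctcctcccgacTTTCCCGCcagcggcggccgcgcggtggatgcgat
Ercc1: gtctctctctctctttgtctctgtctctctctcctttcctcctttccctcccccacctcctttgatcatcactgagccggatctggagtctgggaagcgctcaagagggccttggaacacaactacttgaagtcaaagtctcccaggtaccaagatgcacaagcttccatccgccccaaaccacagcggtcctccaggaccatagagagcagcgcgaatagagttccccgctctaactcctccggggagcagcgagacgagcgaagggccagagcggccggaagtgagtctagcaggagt
The Xrcc6 window held the octamer on the reverse strand, beginning 46 bases before the start, and the Msh6 window held it on the forward strand at base 16 after the start. The windows of Xrcc5 and Ercc1 held none of the octamers. Those of Rad51ap1, Fancb, Rad54l and Ung, genes at least 2-fold lower whose windows are not printed, held none either. Only these exact letters were searched, so close variants of the octamers were not counted. The deposited span of Xrcc6 begins at base 81987835, upstream of its window, and that of Ercc1 at base 19344778, so other starts may be used.

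Of the 61 measured repair genes 46 had a window in the table, and a gene with several windows was counted once. Of the 46, 9 (19.6%) held an E2F-type octamer, against 4.96% of 8987 measured genes with a window. The share was 2.605% of all 27025 genes with a window and 44.8% of 29 replication genes. Of the 6 repair genes at least 2-fold lower that have a window, 2 (Msh6 and Xrcc6) held it. Rad51ap1, Fancb, Rad54l and Ung, the rest of the 6, did not. Of the other 40, 7 held it (17.5%). Those 7, named after their values were seen, were Brca2, Bard1, Rad51c, Chek2, Msh3, Fancg and Msh5, whose log2 ratios ran from −0.97 to 0.13. Of these, Rad51c, Brca2 and Bard1 were at least 1.5-fold lower with PKCi, Chek2 was 1.30-fold lower, and Fancg and Msh3 were close to their CON levels. In Msh3 the forward and reverse octamers overlapped. The shorter motif CCAAT, searched on both strands, stood in windows of 29 of the 46 genes (63.0%). It stood in those of 43.8% of measured genes and 41.1% of all genes with a window. A match of letters is a description of the window and does not show that a factor binds there.

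In nucleotide excision repair, 0 of 9 genes were at least 1.5-fold lower and 1 (11.1%), Ercc1, was at least 1.5-fold higher. Of all measured genes, 16.7% were lower and 16.8% higher at 1.5-fold, so with only 9 genes these counts lie near the shares of all genes. Of the 9, 5 had log2 ratios above 0 and 4 (44.4%) below, against 50.8% of all measured genes below 0. Their median was 0.06. Past 2-fold there were 0 of the 9, against 5.13% lower and 6.53% higher of all measured genes. Ercc1, a subunit of the nuclease that cuts on the 5′ side of a lesion, had 743 counts with PKCi and 435 in CON (46.2 CPM with PKCi and 27.0 CPM in CON, 1.71-fold higher, 95% interval 1.52 to 1.93). Its partner gene Ercc4 (XPF) had 19.2 CPM with PKCi and 22.5 CPM in CON (ratio 0.852, 95% interval 0.729 to 0.994). The damage recognition genes Xpc and Xpa were higher. Xpc, which finds distorted DNA, had 33.5 CPM with PKCi and 23.6 CPM in CON (1.42-fold higher, 95% interval 1.25 to 1.63). Xpa, which verifies the lesion, had 7.90 CPM with PKCi and 5.90 CPM in CON (ratio 1.34, 95% interval 1.02 to 1.76). The helicase genes of TFIIH and the nuclease gene Ercc5 differed by less than 1.5-fold. Ercc2 had 20.3 CPM with PKCi and 19.5 CPM in CON. Ercc3 had 59.4 CPM with PKCi and 66.8 CPM in CON. Ercc5 had 31.6 CPM with PKCi and 38.2 CPM in CON. The genes of transcription-coupled repair lay on either side of 1. Ercc6 had 32.9 CPM with PKCi and 27.5 CPM in CON (ratio 1.19, 95% interval 1.05 to 1.36), and Ercc8 had 7.78 CPM with PKCi and 10.01 CPM in CON (ratio 0.777, 95% interval 0.610 to 0.988).

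Of 16 partner genes of nucleotide excision, 14 (87.5%) were below 0, against 50.8% of all measured genes. Past 2-fold, 1 (6.25%) was lower and 1 (6.25%) higher, near the 5.13% and 6.53% of all measured genes. The partners' median was −0.45, below that of the rule's own genes. Uvssa, which acts with the products of Ercc6 and Ercc8, had 28.2 CPM with PKCi and 12.2 CPM in CON (2.32-fold higher, 95% interval 1.96 to 2.76). Lig1, a ligase shared with replication, had 72.9 CPM with PKCi and 188 CPM in CON (2.58-fold lower, 95% interval 2.41 to 2.76). Ccnh and Mnat1, partners of the kinase in TFIIH, were at least 1.5-fold lower. Ccnh had 21.7 CPM with PKCi and 39.4 CPM in CON, and Mnat1 had 20.7 CPM with PKCi and 34.6 CPM in CON.

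The glycosylase genes had 4 measured members, all with log2 ratios below 0. Ung, which removes uracil, had 125 counts with PKCi and 269 in CON (7.78 CPM with PKCi and 16.7 CPM in CON, 2.15-fold lower, 95% interval 1.73 to 2.68). Neil3, which cuts oxidised bases and some crosslinks, had 93 counts with PKCi and 194 in CON (5.79 CPM with PKCi and 12.1 CPM in CON, 2.08-fold lower, 95% interval 1.62 to 2.70). The intervals of Ogg1 and Neil1, which act on oxidised bases, held a ratio of 1. Ogg1 had 23.9 CPM with PKCi and 26.0 CPM in CON (ratio 0.920, 95% interval 0.799 to 1.06), and Neil1 had 7.59 CPM with PKCi and 9.63 CPM in CON (ratio 0.788, 95% interval 0.616 to 1.01). Of 20 measured partner genes of base excision and break repair, 2 were lower past 2-fold and 0 higher (median −0.23). Parp1, the sensor of strand breaks, had 112 CPM with PKCi and 294 CPM in CON (2.64-fold lower, 95% interval 2.50 to 2.78). Tdp1, which frees trapped topoisomerase ends, had 22.2 CPM with PKCi and 58.9 CPM in CON (2.65-fold lower, 95% interval 2.34 to 3.001). Smug1 and Apex1 stood on opposite sides of 1. The uracil glycosylase gene Smug1 had 30.5 CPM with PKCi and 16.7 CPM in CON (1.82-fold higher, 95% interval 1.57 to 2.12). Apex1, the main nuclease at abasic sites, had 17.9 CPM with PKCi and 29.96 CPM in CON (1.68-fold lower, 95% interval 1.45 to 1.95).

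Of 5 mismatch repair genes, 1 was at least 2-fold lower, 4 had log2 ratios below 0, and the median was −0.12. Msh6, which reads single mismatches, had 1397 counts with PKCi and 2935 in CON (86.9 CPM with PKCi and 182 CPM in CON, 2.10-fold lower, 95% interval 1.97 to 2.24). Msh3, which reads larger loops, had 18.05 CPM with PKCi and 19.8 CPM in CON (ratio 0.913, 95% interval 0.776 to 1.07). Mlh3, a MutL gene, had 52.6 CPM with PKCi and 47.1 CPM in CON (ratio 1.12, 95% interval 1.01 to 1.23). The MutL genes outside the rule were both lower. Pms2 had 11.7 CPM with PKCi and 22.0 CPM in CON (1.88-fold lower, 95% interval 1.57 to 2.26), and Pms1 had 5.60 CPM with PKCi and 10.7 CPM in CON (1.91-fold lower, 95% interval 1.47 to 2.49). Msh5, a meiotic MutS gene, had 20 counts with PKCi and 17 in CON.

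The symbols Ercc6l and Ercc6l2 match the rule without having been placed in these pathways here. Ercc6l, a translocase of mitotic DNA bridges, had 48.7 CPM with PKCi and 79.7 CPM in CON (1.64-fold lower, 95% interval 1.495 to 1.79). Ercc6l2 had 58.5 CPM with PKCi and 75.8 CPM in CON (1.30-fold lower, 95% interval 1.19 to 1.41).

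**Figure D3:**
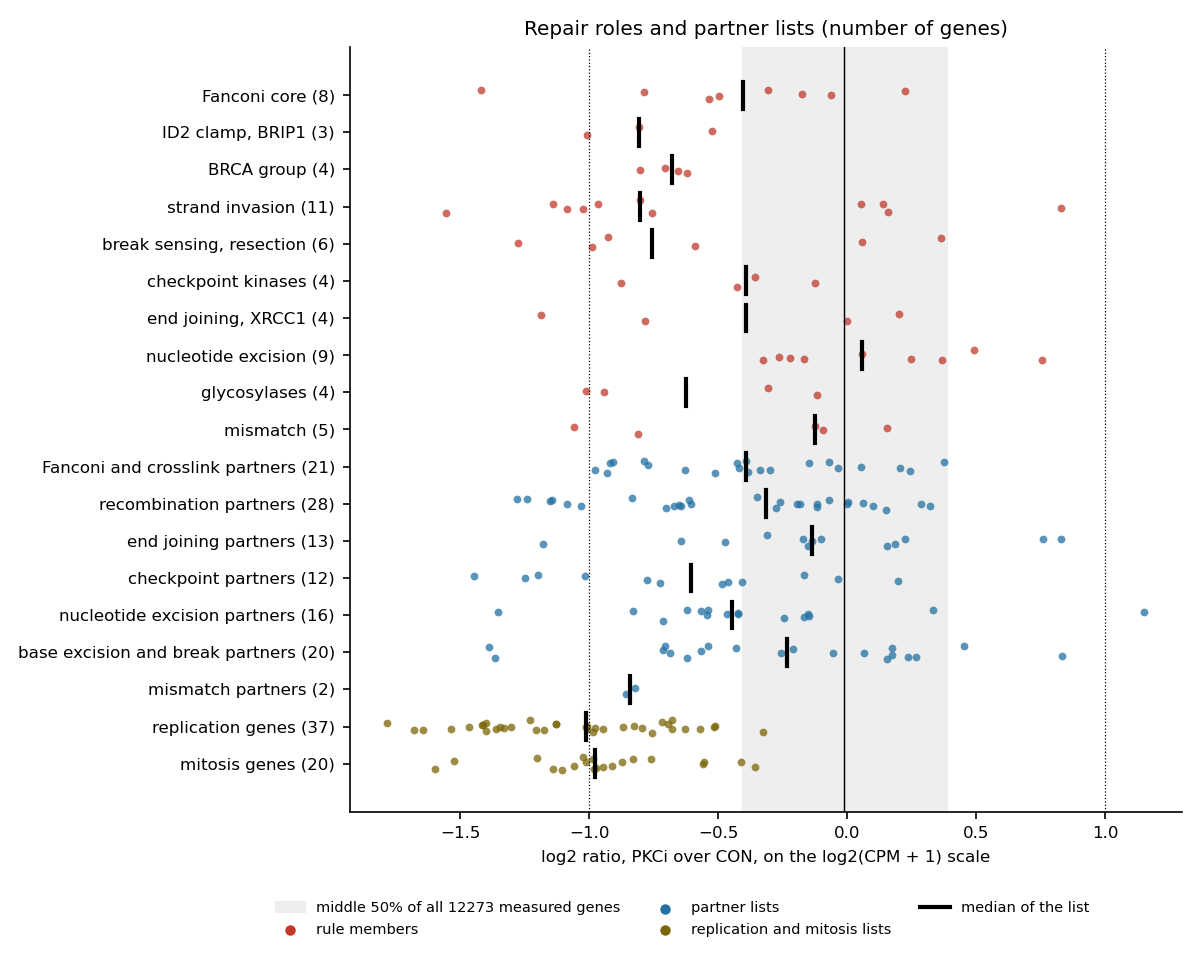
Log2 ratios of PKCi over CON on the log2(CPM + 1) scale (x axis) for each measured gene (points) of the repair roles (red), of partner lists outside the rule (blue) and of replication and mitosis lists (brown), with black bars at the medians and the number of genes in brackets. The grey band holds the middle 50% of all measured genes, and dotted lines mark 2-fold. The median was −0.81 for the strand invasion group, 0.06 for nucleotide excision and −1.01 for the replication list.

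Because the scaling of a library cancels between genes of the same library, 11 pairs of proteins that work as partners were compared as ratios of their levels per length (TPM, computed from the deposited gene lengths). The pairs were chosen after the values were seen, so the changes below are descriptions. The ratio of Xrcc6 to Xrcc5 was 0.288 with PKCi and 0.665 in CON (PKCi over CON 0.433, 95% interval 0.382 to 0.491). That of Mre11a to Rad50 was 0.426 with PKCi and 0.853 in CON (change 0.4998, 95% interval 0.443 to 0.564). In each of these pairs 1 gene was lower with PKCi and the other was close to its CON level.

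Among the genes that assist recombination, the ratio of Rad51c to Xrcc3 was 0.2505 with PKCi and 0.585 in CON (change 0.429, 95% interval 0.322 to 0.568) and that of Xrcc2 to Rad51d was 0.451 with PKCi and 0.996 in CON (change 0.453, 95% interval 0.354 to 0.580). The ratio of Ercc1 to Ercc4 was 5.22 with PKCi and 2.60 in CON (change 2.007, 95% interval 1.65 to 2.45). The change was also below 1 for Fancb to Fancl (0.513, 95% interval 0.396 to 0.665), Nbn to Rad50 (0.630, 95% interval 0.542 to 0.730) and Fancd2 to Fanci (0.718, 95% interval 0.584 to 0.882). For the other pairs the interval of the change held 1. Brca1 to Bard1 was 0.837 with PKCi and 0.788 in CON (change 1.06, 95% interval 0.929 to 1.21), and the others were Brca2 to Palb2 (change 0.935, 95% interval 0.713 to 1.23) and Rad51b to Rad51c (change 1.09, 95% interval 0.754 to 1.58).

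**Figure D4:**
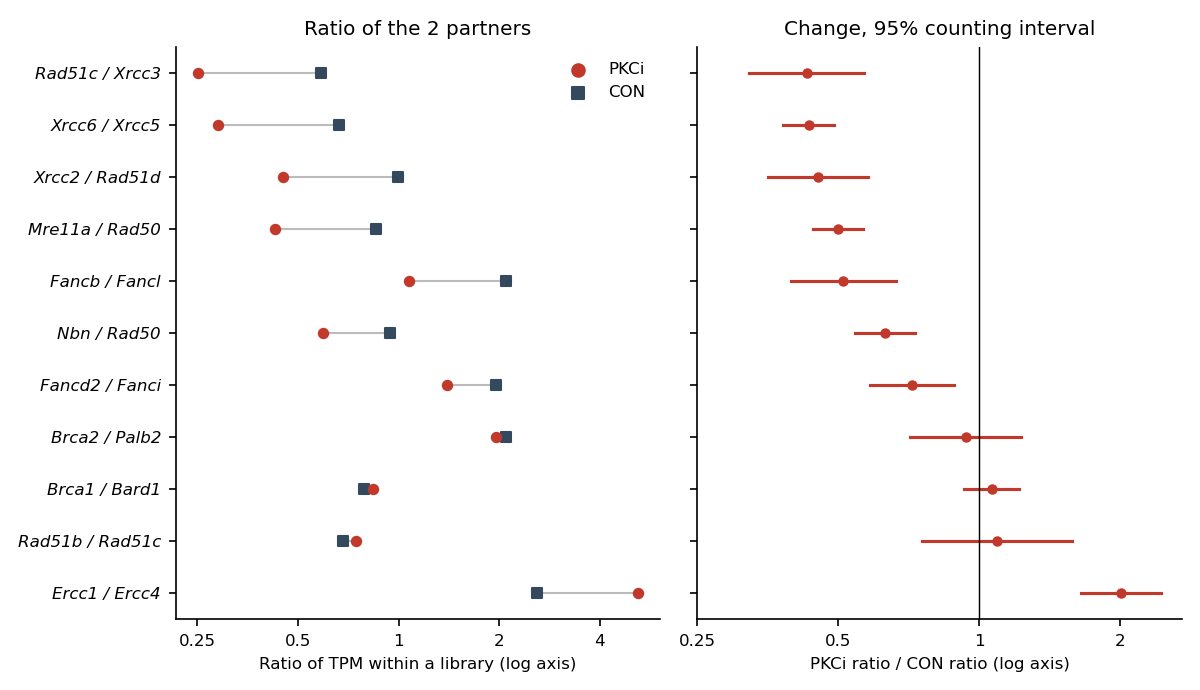
The left panel shows, for 11 pairs of partner genes, the ratio of their TPM in the PKCi library (red circles) and the CON library (dark squares) on a log axis. The right panel shows the PKCi ratio divided by the CON ratio with its 95% counting interval, which lies below 1 for 7 pairs, holds 1 for 3 and lies above 1 for 1.

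Per length, the measured repair genes had a median of 12.6 TPM with PKCi and 16.4 TPM in CON. With PKCi the highest was Xrcc5 (97.2 TPM, against 96.7 TPM in CON), whereas in CON it was Msh6 (66.7 TPM with PKCi and 139 TPM in CON). The 10 repair genes at least 2-fold lower lay on 8 chromosomes, and their median gene length was 5342 bases, against 5555 bases for the other 51. Across the 61 genes, which share both libraries, Spearman's rho of the log2 ratio was −0.16 with gene length and −0.23 with the CON level in TPM, against 0.07 and −0.30 across all measured genes.

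The strand setting of the deposited counts is unknown, and exons of 26 of the 65 genes overlap another gene in GENCODE M21, mostly on the opposite strand. Reads of such partners cannot be told apart without strand, and their part in the values above was not tested. Desi1 shares 7.69% of the exon bases of Xrcc6 (746 counts with PKCi and 1330 in CON), and Lrrc41 shares 15.4% of Rad54l (663 counts with PKCi and 794 in CON). Polg shares 15.95% of Fanci (1144 counts with PKCi and 1062 in CON), and Cd3eap shares 3.41% of Ercc1, with 224 counts with PKCi and 508 in CON. On the same strand, Fsbp shares 35.8% of Rad54b (10 counts with PKCi and 48 in CON).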

How the data were processed

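Per the labels, stranded TruSeq mRNA libraries were sequenced as paired ends. The submitters' processing notes name HISAT2 2.0.5, GRCm38 and mm10. How reads were counted, with which strand setting and annotation, is not given in the sources used here. A single table deposited by the authors lists 54532 genes with counts (whole numbers, despite FPKM in its name) and gene lengths. Unassigned per-sample columns numbered 0. All 65 repair genes matched GENCODE M21 by identifier, 64 with the same position.

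Counts were scaled to CPM. Intervals of folds are exact conditional binomial (Clopper-Pearson), those of changes in a ratio of genes are exact conditional odds ratio intervals, and both cover counting error only. TPM used the deposited gene lengths. With 1 library per group no test was made. The procedure was checked on simulated counts. Tools were Python 3.11.15, numpy 2.4.6, pandas 2.3.3, scipy 1.17.1, matplotlib 3.10.9, R 4.3.3 and edgeR 4.0.16 (TMM factors only).

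The members, role groups and lists were chosen with earlier results of these data known. Full values were to be given for the 10 lowest and 5 highest repair genes with at least 5 CPM, for 19 fixed genes, and for up to 4 genes of each other list. The single values of 3 measured repair genes are not reported here. Alternatives covered the pseudocount, the filter, the scaling, the fold and the membership.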

Additional observations from a re-analysis of the deposited data

How the results depend on the processing

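With at least 1.5-fold in place of 2-fold, 27 repair genes (44.3%) were lower and 2 (3.28%) were higher, against 10 and 0 at 2-fold. Of all measured genes, 16.7% were lower and 16.8% higher at 1.5-fold. Under the other 8 alternatives run for the whole set (a pseudocount of 0.25 CPM, no filter, a filter of 5 CPM, median-of-ratios, TMM, nuclear protein-coding and TPM scaling, and leaving out Ercc6l and Ercc6l2), the number at least 2-fold lower was between 7 (TPM) and 13 (pseudocount of 0.25 CPM), the number higher was 0, and the median log2 ratio lay between −0.46 (filter of 5 CPM) and −0.36 (no filter). The log2 ratios of the named genes and the medians of the lists moved by less than their counting or order-statistic intervals under each alternative run for them, or by at most 0.1 for lists of under 6 genes. No scaling moved the median of all measured genes by over 0.1. The share of all genes past 2-fold was not worked out under the changed pseudocount, filters and scalings. The genes kept ranged from 10271 (filter of 5 CPM) to 20899 (no filter), so these counts cannot be set against a share of all genes. No paired analysis was possible because each group has 1 library, and leaving out a library was not possible for the same reason. Depth limits the genes under about 10 CPM most, where intervals such as that of Neil1 held 1.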
